A study of Mus musculus with 12 samples.

Results

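The response of Socs3fl/fl neutrophils to granulocyte colony-stimulating factor (G-CSF) was read from 6 of the 12 libraries of the series, 3 untreated and 3 with G-CSF, chosen by genotype and treatment label alone. Of the 13935 genes in the table, 13915 were tested, and 13739 of the table's genes had a mean of at least 10 normalized counts over these 6 libraries. The cells were bone marrow neutrophils from mouse femurs, sorted by flow cytometry for CD45, CD11b and Ly6G, then cultured for 8 h in RPMI with 10% fetal bovine serum (FBS) before total RNA was taken for sequencing. The title of the series points to a study of Socs3 loss, neutrophil activation and reactive oxygen species in brain-targeted experimental autoimmune encephalomyelitis (EAE).

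Both floxed groups carried loxP-flanked Socs3 alleles without a Cre, and they differed only in the addition of 10 ng/ml mouse recombinant G-CSF to the culture. The other 6 libraries, 3 untreated and 3 with the same dose and time, carry the label LysMcre Socs3fl/fl. In these mice Cre is made from the lysozyme locus of myeloid cells. They were used to ask where the response differed. They also entered the filter on low values and the shared estimate of spread behind each SE and adjusted p. Fitting the 6 floxed libraries alone gave 6590 genes that passed, against 6784. No label gives the age of the mice. Nor does any say that the replicates of a group were taken from different animals, and a p-value here reflects how far libraries scatter, which may be technical scatter only. Every library was kept outside the body for 8 h, untreated ones included, and no library of freshly sorted cells is among the 12.

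G-CSF is the main cytokine of neutrophil production and release. Its receptor has no enzyme activity of its own: JAK kinases and Src-family kinases bound to it pass the signal to STAT3, with a lesser part for STAT5 and the MAP kinase cascade. STAT3 switches on Socs3, whose protein binds the receptor and shuts the kinases down, so the pathway carries its own brake.

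The 6 floxed libraries held 20483454 to 26472118 reads assigned to genes, recovered from values that the submitters had scaled to normalized counts. Levels are given below in normalized counts for libraries 1, 2 and 3 of a group, in that order. The log2 difference is the mean of log2(value + 1) with G-CSF minus that without, with its standard error (SE), and adjusted p is from limma over all 13915 genes. Within a group the median gene had a standard deviation of 0.117 (untreated) and 0.127 (G-CSF) on the log2 scale. Across genes, libraries of the same floxed group correlated at 0.988 to 0.993 and libraries of different groups at 0.942 to 0.949 on that scale.

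The defining transcripts of neutrophils were high in every library. The 12 defining markers together summed to 1771954 to 1926398 normalized counts in the untreated libraries and 1816233 to 2103103 with G-CSF. The B cell list (summed 10421 to 15202 against 8393 to 14683), the erythroid list (305 to 1076 against 249 to 360) and the platelet list (586 to 1052 against 624 to 1208) had overlapping ranges. The 9 T and NK cell markers summed to 607 to 684 untreated and 439 to 510.4 with G-CSF; 1 of the 9, Cd3d, fell. Of the genes behind the sort, Ptprc (CD45) rose by 0.49 on the log2 scale, and Itgam (CD11b) and Ly6g fell by 0.53 and 0.48. The 10 monocyte and macrophage markers stood at 20366 to 20931 untreated and 14985 to 17686 with G-CSF, and the immature neutrophil markers at 57880 to 72169 and 45897 to 51796. The eosinophil, basophil and mast cell markers stood at 1791 to 3246 and 3011 to 4561. Each of these marker genes had reads in at least 1 floxed library, and the part of other cells in the results was not tested. In bulk RNA, fewer cells of a type and less RNA per cell cannot be told apart.

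On the scaled values, close to as many genes rose with G-CSF as fell. The scaling factors matched median-of-ratios size factors, which place the median gene near 0. The balance of rises and falls, and the median over all genes, are therefore partly set by the scaling. At an adjusted p under 0.05, 3360 genes rose (24.1% of those tested) and 3424 fell (24.6%), 48.8% in either direction. Every count of list members below is to be read beside these shares, and a count near them does not set a list apart. The rises reached further: 345 genes rose at least 4-fold and 213 fell as far, 158 against 53 passed 8-fold, and 35 against 1 passed 32-fold. The median log2 difference over all genes was 0.00 and the median size among the genes that changed was 0.65. Setting every library to the same total moved the median of all genes to -0.09 and gave 2646 rises and 4222 falls, so that 38.5% of the calls were rises against 49.5%.

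**Figure D1:**
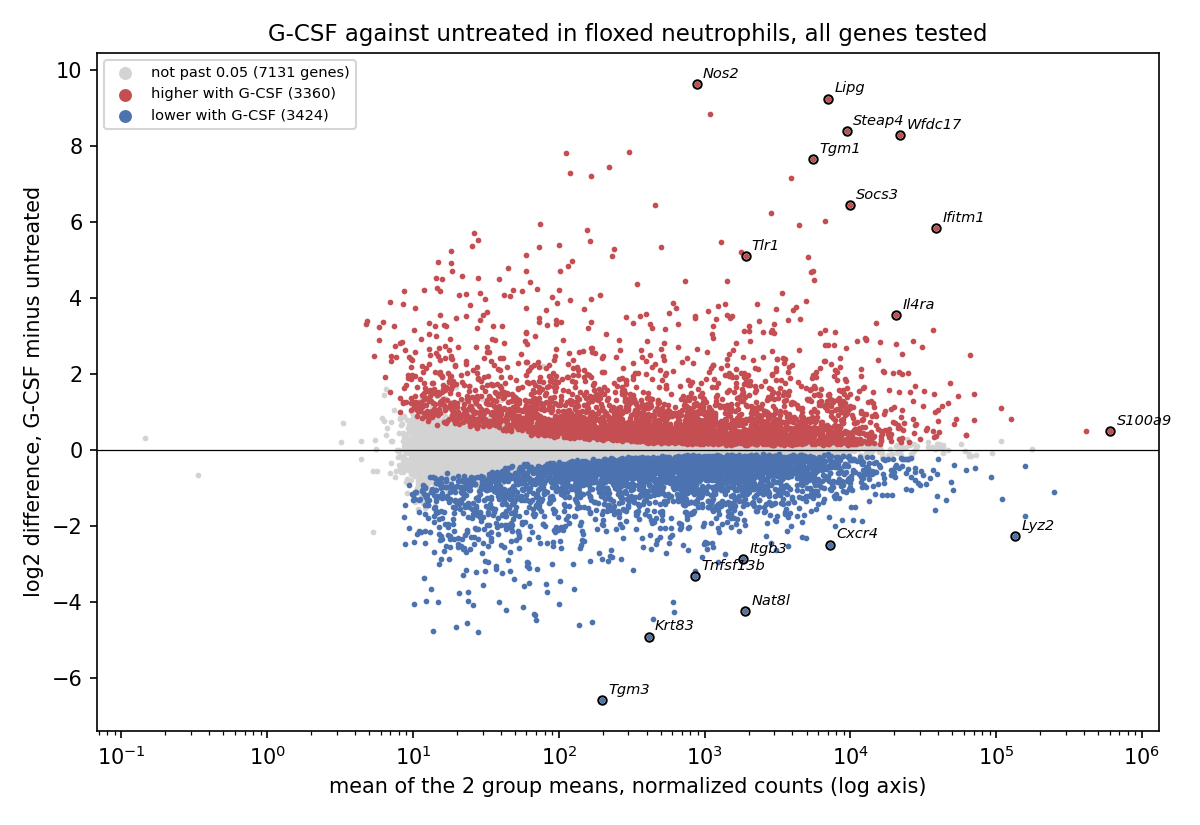
Log2 difference between G-CSF and untreated floxed libraries (vertical axis) against the mean of both group means in normalized counts (horizontal axis, log scale) for all 13915 genes tested; red and blue points passed an adjusted p of 0.05 upward (3360) and downward (3424), grey points did not. The circled genes are named in the text; rises extend to 9.63 (Nos2) and falls to -6.59 (Tgm3).

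Socs3, the gene floxed in these mice and the brake of the pathway, was among the 12 largest rises. It read 225, 201 and 248 normalized counts in the untreated libraries and 21391, 18533 and 18588 with G-CSF. All 3 treated libraries lay far above all 3 untreated ones, and the means of 225 ± 23.1 and 19504 ± 1635 (SD, n = 3 each) differed 86.9-fold (log2 difference 6.44, SE 0.09, adjusted p 2.08e-16). Socs3 lies at mm10 chromosome 11, 117966079 to 117970047, minus strand (GENCODE); the RefSeq start used for its promoter lies inside this gene model.

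A STAT dimer binds a palindrome in which TTC and GAA are separated by 3 bases, TTCNNNGAA. This motif was searched on both strands of RefSeq promoters (GRCm38.p6, from 250 bases before to 50 after each gene's start) for Socs3 and the brakes and target genes that rose; the same motif with 4 bases between TTC and GAA was searched likewise. Of 17 such genes, 13 had a promoter in the table, and 3 of them held TTCNNNGAA: Socs3, Cish and Bcl6. These 3 are shown 5′ to 3′ on the gene's own strand, up to 20 bases past the start, with each match in capitals; they are Socs3 at chr11:117969347-117969616 on the minus strand, Cish at chr9:107296409-107296678 on the plus strand and Bcl6 at chr16:23981264-23981533 on the minus strand.
Socs3: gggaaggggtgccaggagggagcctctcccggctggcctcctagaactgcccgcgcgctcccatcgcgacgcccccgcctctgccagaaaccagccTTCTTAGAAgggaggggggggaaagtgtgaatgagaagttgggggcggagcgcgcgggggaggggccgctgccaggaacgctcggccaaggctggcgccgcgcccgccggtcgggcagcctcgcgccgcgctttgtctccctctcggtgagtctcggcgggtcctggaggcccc
Cish: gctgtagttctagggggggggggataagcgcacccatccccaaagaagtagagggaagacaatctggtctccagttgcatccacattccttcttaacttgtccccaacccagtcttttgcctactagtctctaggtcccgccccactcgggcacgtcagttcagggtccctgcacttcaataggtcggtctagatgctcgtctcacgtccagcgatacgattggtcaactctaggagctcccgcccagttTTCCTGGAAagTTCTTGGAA
Bcl6: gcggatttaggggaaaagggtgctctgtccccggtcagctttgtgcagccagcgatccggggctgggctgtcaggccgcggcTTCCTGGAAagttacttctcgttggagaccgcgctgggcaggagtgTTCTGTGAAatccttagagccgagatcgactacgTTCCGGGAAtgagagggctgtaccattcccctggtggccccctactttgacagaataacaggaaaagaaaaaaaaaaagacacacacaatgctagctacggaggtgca
The Socs3 window holds 1 match, at position 97 of the window, upstream of the start. Cish holds 2 that lie just past its annotated start, at positions 251 and 262, and Bcl6 holds 3 upstream matches, at 83, 129 and 163. Among genes with a promoter in the table, TTCNNNGAA occurred in 9.55% of all 27025, in 8.36% of the 9538 tested, in 10.6% of 2478 that rose, in 7.08% of 2515 that fell and in 7.85% of 4545 that did not pass. The form with 4 bases between occurred in none of the 13 promoters and in 6.70% of genes that rose, 6.92% of those that fell and 6.67% of those tested. These are counts of letters in a window, not of bound sites.

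The receptor and most of its kinases rose. Of 8 genes in this list, 6 rose and 2 fell (median log2 difference 0.80), where 24.1% and 24.6% of all genes did. Csf3r, the G-CSF receptor itself, stood at 70649, 71576 and 64487 normalized counts untreated and 158921, 142904 and 138807 with G-CSF, a rise in every treated library above every untreated one (log2 difference 1.09, SE 0.10, adjusted p 3.65e-07). Per kilobase of exon its mean went from 19092 to 40697 normalized counts, far above the kinases: Fgr, the highest of these on that scale, went from 3815 to 7883 per kilobase. The Src-family kinases, which are bound to myeloid receptors at the membrane, moved together: Fgr rose by 1.05 (SE 0.06, adjusted p 1.06e-09) on the log2 scale and Lyn by 0.94 (SE 0.06, adjusted p 3.60e-09).

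The JAK kinases split. Jak2, the kinase most often tied to growth factor receptors, stood at 2116, 2206 and 2251 and rose to 3541, 3360.3 and 3565 (log2 difference 0.67, SE 0.05, adjusted p 4.05e-08). Jak1 went the other way, from 15933, 16185 and 16885 to 13438, 12807 and 12309 (log2 difference -0.35, SE 0.05, adjusted p 4.10e-05), and Tyk2 from 1987, 2064 and 2086 to 1359.6, 1402 and 1396 (log2 difference -0.56, SE 0.06, adjusted p 1.30e-06). For none of the 3 did the groups overlap. Syk, which couples Fc receptors and integrins to the inside of the cell, rose by 0.68 (SE 0.06, adjusted p 1.22e-07).

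Among the STAT factors, Stat3 stood out. It stood at 7444, 7303 and 7424 normalized counts untreated and 22773, 20829 and 19856 with G-CSF, so each treated library held well over the untreated level (log2 difference 1.51, SE 0.06, adjusted p 7.29e-12). Stat2, part of the interferon-activated factor ISGF3, rose by 1.21 (SE 0.10, adjusted p 1.26e-07), and Stat5b by a small 0.22 (SE 0.05, adjusted p 0.00245). Stat5a did not pass (951, 934 and 985 against 889, 852 and 865, log2 difference -0.14, adjusted p 0.0726; it fell with edgeR and with equal totals). Stat4, which serves interleukin-12 signals in lymphocytes, fell from 827, 851 and 1042 to 511, 451 and 538 (log2 difference -0.85, SE 0.12, adjusted p 2.80e-05).

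Stat6, which serves interleukin-4 signals, read 10227, 10411 and 10107 untreated and 9348, 9105 and 9058 with G-CSF. The groups did not overlap, but the difference was small (log2 difference -0.16, adjusted p 0.0217) and the call was lost in 4 alternatives. In all, 3 STAT genes rose and 3 fell of 7 (median -0.14), and the falls numbered 1 without G-CSF replicate 2, G-CSF replicate 3 or untreated replicate 1.

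The brakes of cytokine signalling went both ways. Of 16 members, Socs3 included, 5 rose and 3 fell (median 0.03; 3 rose with equal library totals), beside 48.8% of all genes that changed. Cish, the STAT5-induced relative of Socs3, went from 301, 248 and 233 to 630.5, 572 and 549.9 (log2 difference 1.17, SE 0.11, adjusted p 2.71e-07). Ptpn1, a phosphatase of JAK2 and TYK2, went from 6588, 6435 and 6589.7 to 14934, 14163 and 13445 (log2 difference 1.12, SE 0.06, adjusted p 3.00e-10). The treated libraries were higher in all 3 cases for both genes.

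Socs1, the other strong JAK inhibitor of the family, did not follow Socs3: it read 119, 116 and 139 untreated and 144, 135 and 131 with G-CSF, with overlapping groups (log2 difference 0.13, adjusted p 0.339). Socs2, Socs5, Socs6 and Socs7 did not pass either, with log2 differences of -0.39, 0.01, 0.19 and -0.13. Socs4 rose by 0.15 (adjusted p 0.0468), a call lost in 10 alternatives, and Ptpn2, a phosphatase of JAK1 and of STATs, by 0.27 (SE 0.07, adjusted p 0.00312), which was lost with equal totals. The ubiquitin ligase Cbl fell from 15142, 15118 and 15513 to 9879, 9096 and 9648 (log2 difference -0.68, SE 0.06, adjusted p 1.35e-07). Pias3, an inhibitor of STAT3, and the phosphatase Ptpn11 fell by 0.40 and 0.24 on the log2 scale. Ptpn6, Sh2b3 and Pias1 stood at -0.05, -0.11 and 0.05 and did not pass.

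Of the 14 genes listed as targets of STAT3 or STAT5, 12 rose (median 1.76, all genes 0.00). The other 2, Pim2 and Fos, did not pass. Il4ra, the interleukin-4 receptor, moved furthest, from 3228, 3256 and 3255 to 41840.2, 36332 and 35302 normalized counts (log2 difference 3.54, SE 0.07, adjusted p 8.85e-15). Bcl3, an atypical inhibitor of NF-kappaB, went from 659, 620.2 and 641 to 7588, 6675 and 6336 (log2 difference 3.42, SE 0.09, adjusted p 1.32e-13). The lowest treated library was several times the highest untreated one for both.

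Transcription factor Junb rose from 3044, 3265 and 2694 to 23634, 22460.0 and 21486 (log2 difference 2.91, SE 0.08, adjusted p 4.04e-13). The survival kinase Pim1 rose from 2732, 2643 and 2689 to 21529, 18405 and 18951 (log2 difference 2.86, SE 0.07, adjusted p 1.39e-13). Its relatives did not move with it: Pim2 read 94.9, 109.6 and 149 untreated and 149, 117 and 114 with G-CSF (adjusted p 0.554), and Pim3 rose by only 0.30 (adjusted p 0.0414; lost in 9 alternatives). Myc, at low counts, went from 74.6, 56.5 and 64.0 to 227, 264 and 278 (log2 difference 1.97, SE 0.14, adjusted p 9.24e-09). The anti-apoptotic Mcl1 rose by 1.54 (SE 0.07, adjusted p 3.46e-11), the cytokine Osm by 2.15 (SE 0.06, adjusted p 2.39e-13), and the receptor gene Il6ra by 0.61 (SE 0.06, adjusted p 7.93e-07). Bcl6 rose by 0.33 (SE 0.07, adjusted p 5.05e-04).

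**Figure D2:**
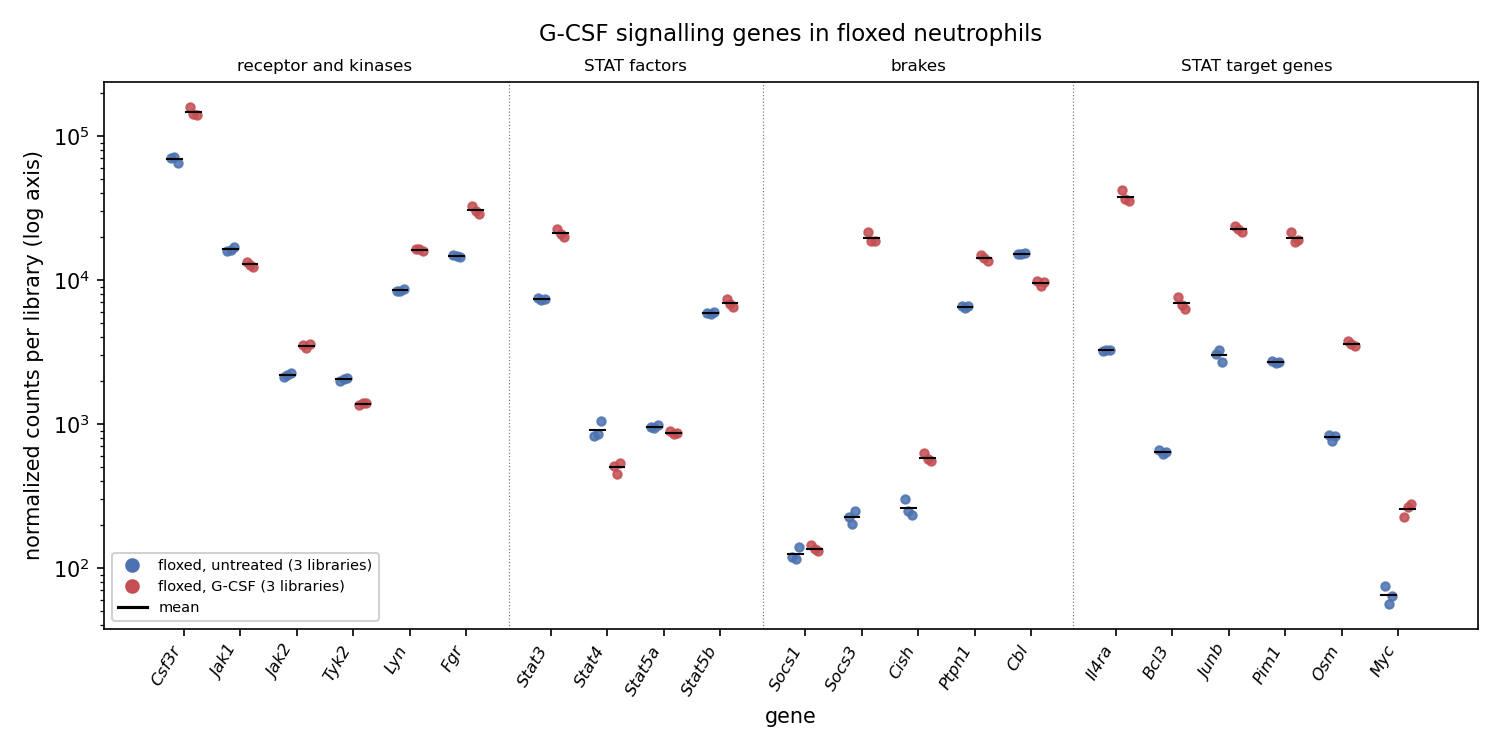
Normalized counts per library (log axis) for 21 genes of the G-CSF pathway; blue points are the 3 untreated and red points the 3 G-CSF floxed libraries, and the black lines are group means. Socs3, Il4ra and Bcl3 show the widest gaps, Jak1, Tyk2, Stat4 and Cbl lie lower with G-CSF, and Socs1 overlaps between the groups.

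Receptors for other cytokines rose broadly, with 16 of 20 past the threshold and the other 4 not passing (median 0.65; with equal library totals 1 member fell). Il1rap, the shared chain of the receptors for interleukin-1 and its relatives, went from 406, 394 and 412 to 9910.3, 10542 and 10407 (log2 difference 4.67, SE 0.06, adjusted p 1.11e-16). That is a 25.5-fold ratio of means with tight replicates in both groups. Csf2rb, the common beta chain for GM-CSF, interleukin-3 and interleukin-5, went from 8285, 8372 and 8226 to 57428, 53861 and 51063 (log2 difference 2.70, SE 0.07, adjusted p 1.16e-13), and its paralog Csf2rb2 from 1309, 1512 and 1291 to 12749.7, 11946 and 11453 (log2 difference 3.14, SE 0.07, adjusted p 6.73e-14). These paralogs are near-identical in part of their sequence, so the split between them is uncertain. The alpha chain Csf2ra, by contrast, did not pass (log2 difference 0.17, adjusted p 0.172, groups overlapping).

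Ifngr1, the ligand-binding chain of the interferon-gamma receptor, rose from 2554, 2716 and 2372 to 16580.3, 16359 and 15420.4 (log2 difference 2.66, SE 0.06, adjusted p 6.73e-14). Tgfbr2 read 2307, 2474 and 2622 untreated and 2484, 2571 and 2406 with G-CSF and did not pass. List members given here and below with a log2 difference alone and no library values or p were named after their values were seen. Among them the decoy receptor Il1r2 rose by 2.42, Il10rb by 1.48 and Tnfrsf1b by 1.47.

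In the MAP kinase list 6 rose and 4 fell of 16 (median -0.03), beside 24.1% and 24.6% of all genes. The phosphatases that switch these kinases off moved in opposite directions. Dusp6, which acts on ERK and is itself induced by ERK, fell from 1720.2, 1797 and 1544 to 269.7, 200.5 and 248 normalized counts (log2 difference -2.82, SE 0.13, adjusted p 9.05e-11). Dusp16, which acts on JNK and p38, rose from 73.5, 89.9 and 137 to 729, 686 and 711 (log2 difference 2.86, SE 0.16, adjusted p 1.08e-09). Neither gene's groups overlapped.

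Spry2, an inhibitor of receptor tyrosine kinase signals, rose by 1.44 (SE 0.17, adjusted p 5.31e-06), and the kinase Map3k8 rose by 1.64 (SE 0.09, adjusted p 7.10e-10). The p38 kinase gene Mapk14 fell by 0.98 and the ERK1 gene Mapk3 by 0.63 on the log2 scale.

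Of 16 transcription factors of the granulocyte lineage, 9 rose and 4 fell (median 0.48). Cebpb, the C/EBP factor of emergency granulopoiesis, went from 2497, 2816 and 2723 to 15747, 14716 and 12123 (log2 difference 2.40, SE 0.09, adjusted p 1.48e-11). Cebpe, which drives granule genes in maturing cells, went from 6734, 5572 and 6401 to 1888, 1431 and 1321 (log2 difference -2.02, SE 0.13, adjusted p 3.11e-09). The gap between the groups exceeded the spread of either one in both genes.

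Gfi1, a repressor needed for neutrophil maturation, fell from 574, 513 and 449 to 144, 165 and 184 (log2 difference -1.63, SE 0.15, adjusted p 1.72e-07), and Cebpa fell by 1.16 on the log2 scale. Hif1a, the oxygen-regulated factor of myeloid metabolism, rose from 2090.0, 2224 and 2392 to 10735, 11675 and 11249 (log2 difference 2.33, SE 0.07, adjusted p 1.24e-12), and Ets2 by 1.97 (SE 0.06, adjusted p 4.04e-13). Cebpd rose by 0.52 (SE 0.07, adjusted p 1.17e-05); 15.0% of its exon length overlaps Spidr on the opposite strand, and since strand use in counting is not given in the sources used here its value is uncertain. Irf8 and Id2 did not pass (log2 differences -0.08 and 0.16).

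Genes of the late granules mostly fell, and those of the first granule mostly rose. Among 18 secondary and tertiary granule genes 10 fell and 2 rose (median -0.46; the rises numbered 1 with equal totals and without G-CSF replicate 1, G-CSF replicate 2, untreated replicate 2 or untreated replicate 3). Ltf, the lactoferrin gene, went from 264019, 211039 and 253773 to 87665, 69035 and 62588 (log2 difference -1.74, SE 0.14, adjusted p 7.87e-08), and Camp, the cathelicidin gene, from 65114, 49486 and 56391 to 21827, 18774 and 16079 (log2 difference -1.60, SE 0.14, adjusted p 1.89e-07). Ngp, a cystatin-like granule protein, went from 369842, 294937 and 365779.7 to 173932, 159228 and 137937 (log2 difference -1.13, SE 0.15, adjusted p 1.14e-05). In each of the 3 genes the highest treated library stayed below the lowest untreated one.

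Lyz2, the lysozyme of myeloid cells, dropped 4.82-fold, from 226031, 219608 and 222142 to 44425, 49035 and 45220.0 (log2 difference -2.27, SE 0.08, adjusted p 3.75e-12). Chil3, a chitinase-like protein, fell by 0.64 on the log2 scale (adjusted p 0.00379). Hp, the haemoglobin scavenger haptoglobin, rose instead, from 28859.6, 26820.2 and 27521 to 68407, 68075 and 58518 (log2 difference 1.23, SE 0.07, adjusted p 7.50e-10). Lcn2, Cd177, Mmp8 and Slpi did not pass, with log2 differences of 0.22, -0.16, -0.16 and 0.07; Lcn2 passed under quantile normalization, and Cd177 and Mmp8 fell under it and with equal totals. Mmp9, the gelatinase of the tertiary granule, fell by 0.44 (SE 0.10, adjusted p 0.00176), a call lost under quantile normalization.

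Of 7 primary granule genes 5 rose and 1 fell (median 0.72). Ctsc, the protease that activates the granule serine proteases, went from 447, 695 and 622 to 1971, 2515 and 2588 (log2 difference 2.02, SE 0.16, adjusted p 3.29e-08), and Prtn3, proteinase 3, from 1129, 1406 and 697 to 2233, 3061 and 2816 (log2 difference 1.37, SE 0.19, adjusted p 1.59e-05). Both had separate groups. Elane, neutrophil elastase, read 1564, 1911 and 825 untreated and 1766, 2581 and 2401 with G-CSF, where the groups overlapped, treated library 1 lying below untreated library 2; its call (log2 difference 0.72, adjusted p 0.0133) was lost without G-CSF replicate 2. Ctsg rose by 1.02 (SE 0.24, adjusted p 0.00215) with overlapping groups. Mpo did not pass (5190.4, 6854 and 3097 against 4818, 6687 and 6399), though it did without untreated replicate 2. Untreated library 3 had the lowest value of its group in Mpo, Elane, Prtn3 and Ctsg.

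On the scale of normalized counts per kilobase of exon, which allows genes to be set beside each other, the 8 largest gains were led by S100a9 (from 968253 to 1356304 in mean) and S100a8 (from 493268 to 693385), the 2 chains of calprotectin. S100a9 itself read 522273, 482893 and 511119 untreated and 716621, 764012 and 643339 with G-CSF, in normalized counts (log2 difference 0.48, SE 0.12, adjusted p 0.00312), and that call was lost under quantile normalization. Next came the interferon-induced membrane genes Ifitm1 (from 1215 to 69419.5), Ifitm2 (from 4118 to 41642) and Ifitm6 (from 10065 to 39998), with Lrg1, Hp and Wfdc17. Ifitm1 counts went from 1219, 1485 and 1282 to 79279, 79362 and 69194 (log2 difference 5.84, SE 0.10, adjusted p 1.38e-15). The secreted glycoprotein gene Lrg1 went from 7553, 6748 and 7914 to 73439.8, 68784 and 56789.5 (log2 difference 3.16, SE 0.12, adjusted p 6.99e-12).

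The largest losses on that scale were Retnlg, Ngp, Lyz2, Camp, Ltf, Tmsb4x, Mmp9 and Chil3. Retnlg, a resistin-like protein of neutrophils, went from 262827 to 106005 normalized counts per kilobase in mean; its counts were 149194, 155053 and 163322 untreated and 62770.1, 68896 and 56918 with G-CSF (log2 difference -1.31, SE 0.08, adjusted p 3.98e-09). Tmsb4x, the actin-binding thymosin beta 4, fell by 0.48 (SE 0.08, adjusted p 8.59e-05) on the log2 scale. All 8 losses had groups that did not overlap.

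Protease inhibitors held some of the steepest rises, although the list as a whole was mixed: 7 of 16 rose and 2 fell (median 0.34; 1 fell without G-CSF replicate 1, G-CSF replicate 3, untreated replicate 1 or untreated replicate 2). Wfdc17, a whey acidic protein made by activated myeloid cells, read 151, 159 and 111 untreated and 41573, 47869.7 and 41256 with G-CSF, in normalized counts (log2 difference 8.28, SE 0.13, adjusted p 5.44e-16), a 309.9-fold ratio. Its neighbour Wfdc18 was at 0, 0.857 and 0.941 untreated and 236, 255 and 225 with G-CSF. Serpina3g rose by 1.01 (SE 0.19, adjusted p 4.21e-04). Timp2, an inhibitor of metalloproteinases, fell from 7616, 8067 and 8238 to 4523, 4463 and 3631 (log2 difference -0.93, SE 0.08, adjusted p 8.72e-08). Stfa2l1 did not pass and belongs to a family of near-identical stefins.

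**Figure D3:**
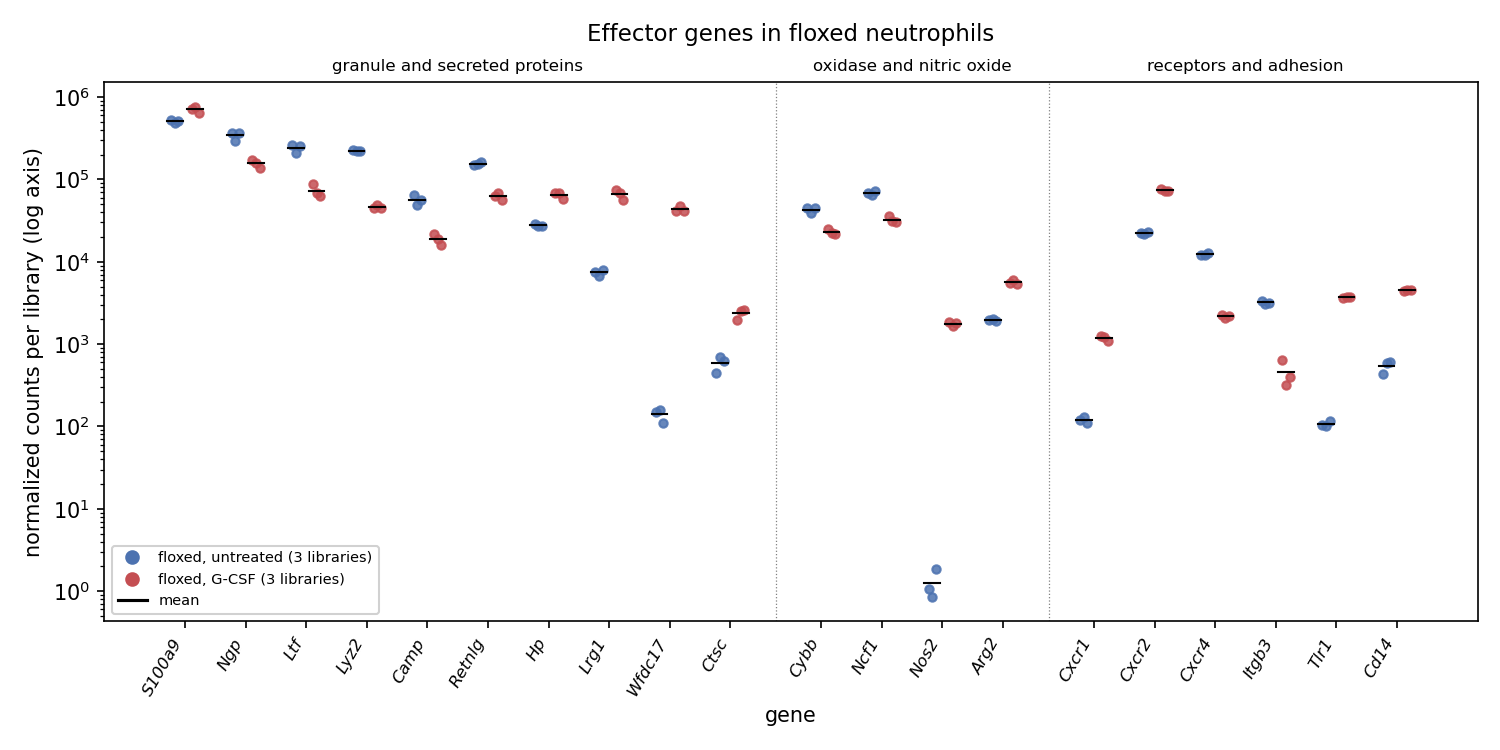
Normalized counts per library (log axis) for 20 effector genes; blue points are the 3 untreated and red points the 3 G-CSF floxed libraries, with black lines at group means. Ngp, Ltf, Lyz2, Camp, Retnlg, Cybb, Ncf1, Cxcr4 and Itgb3 lie lower with G-CSF, the other 11 lie higher, and Nos2 climbs from about 1 read per library.

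The subunits of the NADPH oxidase, the complex that makes superoxide, mostly lay level or lower. Of 8 genes 4 fell and 2 rose (median -0.17), beside 24.6% and 24.1% of all genes. Cybb, the catalytic gp91phox subunit, went from 44384, 39461 and 44937 to 24725, 22318 and 21967 (log2 difference -0.90, SE 0.09, adjusted p 6.96e-07). Ncf1, the p47phox organizer, went from 67979, 64307 and 72190.4 to 36226, 30907 and 30589 (log2 difference -1.07, SE 0.10, adjusted p 3.69e-07). Neither gene's groups overlapped.

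Cyba and Rac2 did not pass (log2 differences -0.08 and 0.15; Cyba fell under equal totals and quantile normalization, and Rac2 rose without G-CSF replicate 3). The rises of Ncf4 (0.18) and Rac1 (0.18) rested on the scaling: none of the list rose with equal totals or quantile normalization, and 1 rose without G-CSF replicate 1 or 2 or any one untreated library, with the replicate block, or when only the 6 floxed libraries were fitted. The proton channel Hvcn1, which balances the charge of oxidase activity, read 1838, 1618 and 1816 untreated and 446, 454 and 480.2 with G-CSF (log2 difference -1.93, SE 0.08, adjusted p 1.77e-11); 44.2% of its exon length overlaps Tctn1 on the opposite strand, so its value is uncertain.

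Nitric oxide and arginine genes went the other way: 7 of 11 rose and 1 fell (median 0.75; 2 fell under quantile normalization). Nos2, the inducible nitric oxide synthase, was close to absent at 1.07, 0.857 and 1.88 normalized counts and stood at 1846, 1639 and 1817 with G-CSF (log2 difference 9.63, SE 0.21, adjusted p 2.06e-14). In reads this was 4 over the 3 untreated libraries against 5506 over the 3 treated ones, a ratio of scaled counts of 1394 with a 95% counting interval of 544 to 5120. Arg2, the mitochondrial arginase, rose from 1953, 1992 and 1909.5 to 5539, 6038 and 5441 (log2 difference 1.54, SE 0.06, adjusted p 1.50e-11), and part of its exon length is shared with Vti1b on the opposite strand, which leaves the value uncertain. Spermidine synthase Srm rose by 2.58 (SE 0.22, adjusted p 1.11e-07) and the cationic amino acid transporter Slc7a1 by 0.97 (SE 0.11, adjusted p 1.93e-06). Sat1, the polyamine acetyltransferase, read 10130.4, 10456 and 10365 untreated and 10361, 10658 and 10672 with G-CSF and did not pass, though under quantile normalization it fell.

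Besides Nos2, 4 genes went from at most 3 reads in every untreated library to at least 50 normalized counts in every treated one, and no gene did the reverse. Ambp, the precursor of alpha-1-microglobulin and bikunin, had 4 reads untreated and 1042 with G-CSF (ratio of scaled counts 264, interval 103 to 970). Wfdc18 had 2 and 748 reads (ratio 379, interval 105 to 3134). The small-conductance potassium channel Kcnn3 had 5 and 463 (ratio 93.8, interval 39.9 to 290.3), and the chemoattractant receptor Gpr15 had 7 and 269 (ratio 38.9, interval 18.6 to 97.8). These 95% intervals cover counting error only.

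Antioxidant genes were split, 9 up and 5 down of 19, beside 24.1% and 24.6% of all genes (median 0.08, and -0.01 with equal totals). Under quantile normalization 8 fell. Hmox1, heme oxygenase 1, went from 1897, 1733 and 1322 to 6288, 6056 and 5759 (log2 difference 1.88, SE 0.13, adjusted p 7.58e-09). G6pdx, which supplies NADPH, went from 13823, 12409 and 13571 to 41093, 39068 and 34077 (log2 difference 1.52, SE 0.08, adjusted p 2.64e-10). Gclm, of glutathione synthesis, rose by 1.67 (SE 0.09, adjusted p 3.56e-10) and the cystine transporter Slc7a11 by 1.62 (SE 0.10, adjusted p 3.73e-09). Glutathione reductase Gsr and thioredoxin Txn1 did not pass (log2 differences 0.08 and -0.02, both lower and called under quantile normalization). Cat, Prdx5, Prdx6, Sod1 and Pgd were the 5 that fell, by 0.68, 0.71, 0.96, 0.45 and 0.25 on the log2 scale.

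Receptors that guide neutrophils between marrow, blood and tissue changed strongly. Of 13 chemoattractant receptors 10 rose and 2 fell (median 0.71; 1 fell without G-CSF replicate 2). Cxcr4, which holds neutrophils in the marrow, went from 12203, 12159 and 12681 to 2238, 2076 and 2219 (log2 difference -2.50, SE 0.05, adjusted p 2.04e-14), a 5.67-fold drop in means. Cxcr2, which draws them out, went from 22099, 21614 and 22746 to 76728, 73243 and 72136 (log2 difference 1.74, SE 0.07, adjusted p 1.02e-11). Cxcr1, the second receptor of this kind, went from 119, 130.2 and 110.1 to 1252, 1208 and 1093 (log2 difference 3.29, SE 0.13, adjusted p 2.15e-11). In all 3 the groups were far apart.

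Ccr1 rose by 2.11 (SE 0.07, adjusted p 3.77e-12). Ccr2 rose by 0.75 (SE 0.19, adjusted p 0.00357) with overlapping groups, at 1249, 1972 and 1484 untreated and 1900.2, 2967 and 3084 with G-CSF. The complement receptor C3ar1 did not pass (76.7, 135 and 149 against 115, 218 and 272; it did with edgeR and without G-CSF replicate 1 or untreated replicate 3). The platelet-activating factor receptor Ptafr was the other gene that fell, by 0.29 on the log2 scale.

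Adhesion genes moved in both directions, 6 up and 8 down of 14 (median -0.23). Selplg, the selectin ligand PSGL-1, went from 19349.5, 20089.7 and 20071 to 59164, 57329 and 48983 (log2 difference 1.47, SE 0.07, adjusted p 1.92e-10). Several integrins fell, led by Itgb3, the beta 3 chain, at 3328, 3103 and 3192 untreated and 649, 319.6 and 399 with G-CSF (log2 difference -2.88, SE 0.18, adjusted p 3.15e-09). The alpha M and beta 2 chains of the CD11b integrin fell less, Itgam by 0.53 and Itgb2 by 0.40 on the log2 scale; Itgam encodes a protein used in the sort. Cd47, the signal that restrains phagocytosis, rose by 1.27 (SE 0.07, adjusted p 6.20e-10). Pecam1 rose by 0.22 (adjusted p 0.0124), which was lost with equal totals and without untreated replicate 1.

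Sensors of microbial products rose in number: 15 of 24 pattern recognition and Fc receptor genes rose and 6 fell (median 0.66). Tlr1, the partner of TLR2 for bacterial lipopeptides, showed the widest change, from 106, 101 and 118 to 3671, 3755 and 3702 (log2 difference 5.09, SE 0.07, adjusted p 1.11e-16). Tlr2 itself went from 2135, 2155 and 2254 to 10847, 11068 and 10894 (log2 difference 2.33, SE 0.07, adjusted p 1.26e-12). Tlr4, the lipopolysaccharide receptor, went from 538, 619 and 537 to 2899, 3211 and 3116 (log2 difference 2.44, SE 0.07, adjusted p 2.60e-13).

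Cd14, the co-receptor of TLR4, rose with it, from 432, 584 and 600.4 to 4389.6, 4589 and 4602 (log2 difference 3.08, SE 0.15, adjusted p 1.27e-10). The members that fell were Tlr5 (-1.51), Tlr7 (-1.22), Tlr8 (-0.33), Nod1 (-1.43), Nod2 (-0.67) and Trem3 (-0.52). The Fc receptor genes Fcgr2b and Fcgr3 did not pass (log2 differences -0.10 and 0.11; Fcgr2b did with equal totals and Fcgr3 without G-CSF replicate 3).

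Chemokine ligands rose in 7 of 12 cases, and the other 5 did not pass (median 1.26). Ccl4, which attracts monocytes and lymphocytes, went from 56.5, 42.8 and 72.5 to 2491, 2469 and 2645 (log2 difference 5.47, SE 0.16, adjusted p 7.48e-13). The CXCR2 ligand Cxcl2 went from 155, 111 and 158 to 1479, 1302 and 1954 (log2 difference 3.47, SE 0.19, adjusted p 5.77e-10), and its relative Cxcl3 from 6.39, 5.14 and 8.47 to 175, 179 and 234 (log2 difference 4.69, SE 0.18, adjusted p 1.20e-11). Cxcl1 rose too (7.46, 4.28 and 0.941 to 16.2, 13.1 and 11.3, adjusted p 0.00878), at counts close to the detection floor. Ccl6 was abundant in both groups and did not pass (log2 difference 0.16), and Ccl9 did not either, except without G-CSF replicate 1 or untreated replicate 2.

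Among 16 other cytokine genes, 8 rose and 3 fell (median 0.36). Il1b, the inflammasome cytokine, went from 1845, 1733 and 1392 to 13550.2, 13695 and 14874 (log2 difference 3.09, SE 0.19, adjusted p 2.42e-09), while its antagonist Il1rn read 3425, 3221 and 3563 untreated and 3246, 3354 and 3390.5 with G-CSF and did not pass. Tnfsf13b, the B cell survival factor BAFF, fell from 1721, 1485 and 1500.1 to 183, 155 and 133 (log2 difference -3.32, SE 0.10, adjusted p 1.28e-12). Hgf, hepatocyte growth factor, fell from 1033, 962 and 838 to 208, 229 and 233 (log2 difference -2.07, SE 0.09, adjusted p 7.36e-11). The third that fell was Tgfb1, by 0.43 on the log2 scale.

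In the NF-kappaB list 9 rose and 2 fell of 15 (median 0.42; 1 fell without G-CSF replicate 2 or untreated replicate 1 and none without untreated replicate 2). Apart from Bcl3, the rises were moderate: the subunits Relb and Nfkb2 rose by 0.98 (SE 0.09, adjusted p 3.97e-07) and 0.94 (SE 0.07, adjusted p 2.89e-08), and the inhibitor Nfkbia by 0.85 (SE 0.06, adjusted p 1.43e-08). Rel and Tnip1 did not pass (log2 differences 0.14 and 0.06). Immediate-early and heat shock genes, which respond to handling as well as to cytokines, rose in 10 of 14 cases, with sums of 20332 to 21167 normalized counts untreated and 39855 to 42768 with G-CSF. Jun rose by 2.24 (SE 0.09, adjusted p 1.37e-11) and Zfp36 by 1.47 (SE 0.06, adjusted p 4.55e-11), with Hspa1a at 28.8, 4.28 and 19.8 untreated and 130.0, 94.6 and 134 with G-CSF; Fos and Ier2 did not pass. The part of handling in these values was not tested.

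Interferon-stimulated genes rose in 16 of 24 cases and fell in 1 (median 0.76), against a noisy baseline. Their sum was 29675, 21111 and 44113 normalized counts in the 3 untreated libraries and 70055, 51359 and 58176 in the treated ones. Untreated library 3 was the highest and library 2 the lowest of its group, and all 3 treated sums lay above the untreated ones. Oas2, an antiviral synthetase, went from 1402, 853 and 2175 to 7613, 5516 and 6259 (log2 difference 2.22, SE 0.24, adjusted p 1.65e-06), and Zbp1, a sensor of Z-form nucleic acid, from 293, 143 and 503 to 1682, 1074 and 1329 (log2 difference 2.27, SE 0.34, adjusted p 4.85e-05).

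Oasl2 rose by 1.80 (SE 0.23, adjusted p 7.99e-06) and Ifit1 by 1.45 (SE 0.37, adjusted p 0.00411). Their close relatives did not all follow: Ifit3 read 698, 290.4 and 1442 untreated and 961, 451 and 616 with G-CSF and did not pass, nor did Rsad2 (log2 difference -0.39, called lower without untreated replicate 2). Cmpk2, the neighbour of Rsad2, was the member that fell, by 1.39 on the log2 scale; 2 members fell without untreated replicate 2. Over the alternatives 14 to 19 members rose. Bst2 rose by 0.51 (adjusted p 0.0268) and lost its call with equal totals and without G-CSF replicate 1 or 3 or untreated replicate 1 or 2.

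Of 19 antigen presentation genes 1 rose and 4 fell (median -0.04), beside 24.1% and 24.6% of all genes. Cd274, the checkpoint ligand PD-L1, was the one that rose, from 241, 260.4 and 254 to 432, 316 and 496 (log2 difference 0.69, SE 0.15, adjusted p 0.00108); 2 rose without G-CSF replicate 1 or untreated replicate 3. The class I chain H2-K1, the transporter Tap2 and the immunoproteasome subunit Psmb9 fell by 0.41, 0.61 and 0.50 on the log2 scale, and Cd80 fell by 0.36 with overlapping groups. B2m and H2-D1 did not pass (log2 differences -0.02 and -0.15), and neither did H2-Ab1 (485, 738 and 1009 against 583, 1031 and 1155). B2m and H2-D1 fell under quantile normalization, and H2-D1 also with equal totals, with edgeR and without G-CSF replicate 1.

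Survival genes rose in 6 of 12 cases, and the other 6 did not pass (median 0.41), beside 24.1% of all genes that rose and 24.6% that fell. Birc2 fell with edgeR, with equal totals, with a mean of at least 50 and without G-CSF replicate 3. Bcl2l1, which encodes BCL-XL, went from 911, 826 and 939 to 2866, 2767 and 2472 (log2 difference 1.60, SE 0.07, adjusted p 7.87e-11), beside the rise of Mcl1 given above. Birc3, a ubiquitin ligase that holds back cell death, rose by 1.22 (SE 0.05, adjusted p 3.52e-11), and Cflar, the inhibitor of caspase 8, by 0.75 (SE 0.06, adjusted p 2.94e-08). The Bcl2a1 genes are near-identical copies and are left as uncertain.

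Of 16 death genes 5 rose and 7 fell (median 0.13), beside 24.1% and 24.6% of all genes. The BH3-only killers Bbc3 (PUMA) and Bmf fell, Bbc3 from 798, 859 and 711 to 341, 296 and 288 (log2 difference -1.35, SE 0.09, adjusted p 1.04e-08) and Bmf by 1.01 on the log2 scale. Tnfrsf10b, the receptor for TRAIL, went the other way, from 3.20, 8.57 and 11.3 to 227, 226 and 217 (log2 difference 4.83, SE 0.38, adjusted p 3.81e-08). Bak1 and Fas did not pass (log2 differences 0.13 and 0.12).

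Glycolysis genes rose in 8 and fell in 6 of 20 cases (median 0.07, and -0.02 with equal totals, where 9 fell), beside 24.1% and 24.6% of all genes. The change was uneven along the pathway. Slc2a1, the glucose transporter GLUT1, went from 647, 614 and 587 to 9855, 9412 and 8845 (log2 difference 3.92, SE 0.07, adjusted p 2.53e-15), whereas Slc2a3 (GLUT3) read 26932, 27949 and 27667 untreated and 28123, 27134 and 25003 with G-CSF and did not pass, falling with equal totals and quantile normalization. Pfkfb3, which makes the activator of phosphofructokinase, rose by 1.60 (SE 0.08, adjusted p 3.02e-10), Pfkl by 1.44 (SE 0.07, adjusted p 2.04e-10) and the lactate exporter Slc16a3 by 1.11 (SE 0.07, adjusted p 1.62e-09). Pgam1 and Hk2 fell by 1.03 and 1.08 on the log2 scale, and Eno1 did not pass (0.06; it fell under quantile normalization).

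Of 24 oxidative phosphorylation genes 3 rose and 4 fell (median 0.03), beside 24.1% and 24.6% of all genes. The widest changes were 0.40 for Sdhb, a subunit of succinate dehydrogenase, and -0.38 for Atp5c1, of the ATP synthase. The rises numbered 1 with equal totals and the falls 2 without G-CSF replicate 3. Transcripts encoded in mitochondria summed to 38563 to 41027 normalized counts untreated and 39391 to 59724 with G-CSF, and 1 of 9, mt-Nd5, rose. That count was 7 without G-CSF replicate 1, and 0 with equal totals, without G-CSF replicate 2 or 3, or without untreated replicate 3.

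Most genes for building ribosomes rose, and most genes of the ribosome's own proteins did not pass. The summed counts of the nucleolar list did not rise with them. They were 11179 to 11646 normalized counts untreated and 9494 to 11458 with G-CSF, which are overlapping ranges. In the nucleolar list 16 of 20 rose and 1 fell (median 0.70), among them Nop58, a core protein of small nucleolar particles (99.1, 100.2 and 119.5 to 296, 320.4 and 343, log2 difference 1.58, SE 0.13, adjusted p 1.02e-07), and Dkc1, the dyskerin gene, by 1.36 (SE 0.12, adjusted p 1.53e-07). The member that fell, Polr1a, is the largest subunit of RNA polymerase I; it went from 4191, 4324 and 4250.1 to 1113, 1157 and 1060.2 (log2 difference -1.94, SE 0.07, adjusted p 3.91e-12). Npm1 and Ncl, which encode nucleophosmin and nucleolin, did not pass (log2 differences 0.29 and 0.11), and did without G-CSF replicate 1. Of 24 cytosolic ribosomal protein genes, 3 rose and 21 did not pass (median 0.12; 10 rose without G-CSF replicate 1). Rps9 rose by 0.73 (SE 0.07, adjusted p 3.15e-07) and Rpl14 by 0.52 (SE 0.09, adjusted p 2.74e-04).

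Amino acid and tRNA charging genes formed one of the most uniform lists, with 20 of 22 up and 2 down (median 0.71; 1 fell without G-CSF replicate 1 or 2 or untreated replicate 1 or 3). Aars, the alanyl-tRNA synthetase, went from 984, 955 and 912 to 2587, 2375 and 2366 (log2 difference 1.36, SE 0.07, adjusted p 7.04e-10). Trib3, a target of the ATF4 stress response, rose by 1.31 (SE 0.10, adjusted p 5.15e-08), and the serine synthesis enzymes Phgdh and Psat1 by 1.16 (SE 0.11, adjusted p 4.25e-07) and 1.14 (SE 0.11, adjusted p 3.26e-07). Lars and Sars were the 2 that fell, by 0.20 and 0.35 on the log2 scale.

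In the endoplasmic reticulum list 11 of 18 rose and 7 did not pass (median 0.33). Xbp1, the factor spliced in the unfolded protein response, went from 1462, 1453 and 1474 to 6058, 6134 and 5838 (log2 difference 2.04, SE 0.06, adjusted p 6.66e-13), and its co-chaperone target Sdf2l1 rose by 1.38 (SE 0.15, adjusted p 1.54e-06). Atf6 rose by 0.95 (SE 0.07, adjusted p 2.28e-08) and Manf by 0.80 (SE 0.09, adjusted p 2.89e-06). Pdia3 and Herpud1 missed the threshold (adjusted p 0.0515 and 0.0512); Herpud1 fell with edgeR, equal totals, quantile normalization, a mean of at least 50 or without G-CSF replicate 1. Proteasome genes showed small differences, 11 up and 1 down of 23 (median 0.17), beside 24.1% and 24.6% of all genes. Psmd14 rose by 0.38 (SE 0.07, adjusted p 5.13e-04) and Psmb3 fell by 0.35 on the log2 scale. The rises numbered 3 with equal totals, 5 without G-CSF replicate 2 and 6 without untreated replicate 2.

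In the list of sterol and fatty acid synthesis, which also holds the exporters Abca1 and Abcg1, 20 of 24 genes rose and 2 fell (median 0.80; 1 fell without untreated replicate 3). Fdps, which makes farnesyl diphosphate, went from 396, 405 and 362 to 997, 1010.4 and 929 (log2 difference 1.33, SE 0.07, adjusted p 2.67e-10). Lanosterol synthase Lss rose by 1.28 (SE 0.09, adjusted p 1.29e-08). The sterol exporter Abca1 rose from 239, 262 and 425 to 4255, 3861 and 4648 (log2 difference 3.82, SE 0.20, adjusted p 3.70e-10), while its relative Abcg1 fell by 1.12 and Acly by 0.20 on the log2 scale. The regulator Srebf2 and the desaturase Scd1 did not pass (log2 differences 0.13 and -0.21). Soat2, which esterifies cholesterol, is outside the list and was one of the 12 largest rises, from 73.5, 96.8 and 57.4 to 6236, 5194 and 5412 (log2 difference 6.22, SE 0.19, adjusted p 7.48e-13).

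Lysosome and autophagy genes rose in 12 and fell in 5 of 24 cases (median 0.21; 8 fell with equal totals). The cathepsins rose: Ctsl, at 417, 479.7 and 359.5 untreated, reached 1595, 1748 and 1783 (log2 difference 2.03, SE 0.10, adjusted p 2.85e-10), and Ctsb rose by 1.61 (SE 0.06, adjusted p 5.18e-12). For Ctsl, 26.8% of exon length overlaps Gm47123 on the opposite strand, which leaves its value uncertain. The lysosomal membrane protein Lamp2 rose by 1.47 (SE 0.05, adjusted p 6.90e-12) and Atg3, which loads LC3 onto lipid, by 1.47 (SE 0.08, adjusted p 5.00e-10). The autophagy receptor Sqstm1 and Map1lc3b did not pass (log2 differences -0.09 and -0.07), and fell with equal totals and quantile normalization.

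Iron genes rose in 8 and fell in 1 of 13 cases (median 0.40). Steap4, a metalloreductase of iron and copper, had the lowest adjusted p of the named genes, reading 52.2, 61.7 and 52.7 untreated and 17621, 20021 and 18781 with G-CSF (log2 difference 8.38, SE 0.07, adjusted p 1.40e-18). Fth1, the heavy chain of the iron store ferritin, rose from 32086, 29908 and 27411 to 80159.7, 83428 and 74555 (log2 difference 1.41, SE 0.08, adjusted p 1.48e-09), and Ncoa4, which delivers ferritin to lysosomes, fell from 4578, 4108 and 4287 to 1236, 1365 and 1299 (log2 difference -1.73, SE 0.06, adjusted p 2.21e-12). The ferritin light chain Ftl1 did not pass; 26.5% of its exon length overlaps Gm10252 on the opposite strand.

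Of 15 lipid mediator genes 6 fell and 4 rose (median -0.36), beside 24.6% and 24.1% of all genes. Their summed counts were higher with G-CSF, at 57523 to 60673 untreated and 68040 to 78289 treated. Alox5ap, which presents arachidonate to 5-lipoxygenase, rose from 25421, 25287 and 26523 to 54677, 57460.3 and 48299 (log2 difference 1.05, SE 0.07, adjusted p 5.07e-09), while the enzymes Alox5 and Lta4h fell by 0.76 and 1.00 on the log2 scale. Thromboxane synthase Tbxas1 fell by 1.82 on that scale, prostaglandin E synthase Ptges by 1.54 and the prostaglandin-degrading Hpgd by 1.70.

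Replication and mitosis genes, which read cells in cycle, rose by small amounts in 19 of 21 cases, with 1 fall (median 0.45; 14 rose with equal totals). The helicase subunits Mcm4 and Mcm2 rose by 0.90 (SE 0.06, adjusted p 1.56e-08) and 0.85 (SE 0.10, adjusted p 5.06e-06), and the ribonucleotide reductase Rrm2 by 0.72 (SE 0.11, adjusted p 4.10e-05), whereas thymidine kinase Tk1 fell from 583, 507 and 572 to 269.7, 273 and 311 (log2 difference -0.96, SE 0.09, adjusted p 5.44e-07). Of 12 immature neutrophil markers 4 rose and 5 fell: the stem cell factor receptor Kit rose from 845, 780.4 and 724 to 2918, 3120.4 and 2759.6 (log2 difference 1.90, SE 0.07, adjusted p 3.38e-12), and Cd34 and Flt3 did not pass (log2 differences -0.07 and -0.19). Whether cycling cells account for the replication genes was not tested.

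Clock genes fell in 7 and rose in 1 of 14 cases (median -0.29). Per2, a repressor of the clock, went from 1002, 881 and 929.8 to 145, 112 and 169 (log2 difference -2.73, SE 0.24, adjusted p 1.39e-07), and the clock output factor Hlf fell by 1.24 on the log2 scale. Dbp fell by 1.43; 18.0% of its exon length overlaps Sphk2 on the opposite strand. Bhlhe40 rose by 0.81 (SE 0.09, adjusted p 1.80e-06). Clock and Tef did not pass. The hour of sorting is not given by the labels.

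**Figure D4:**
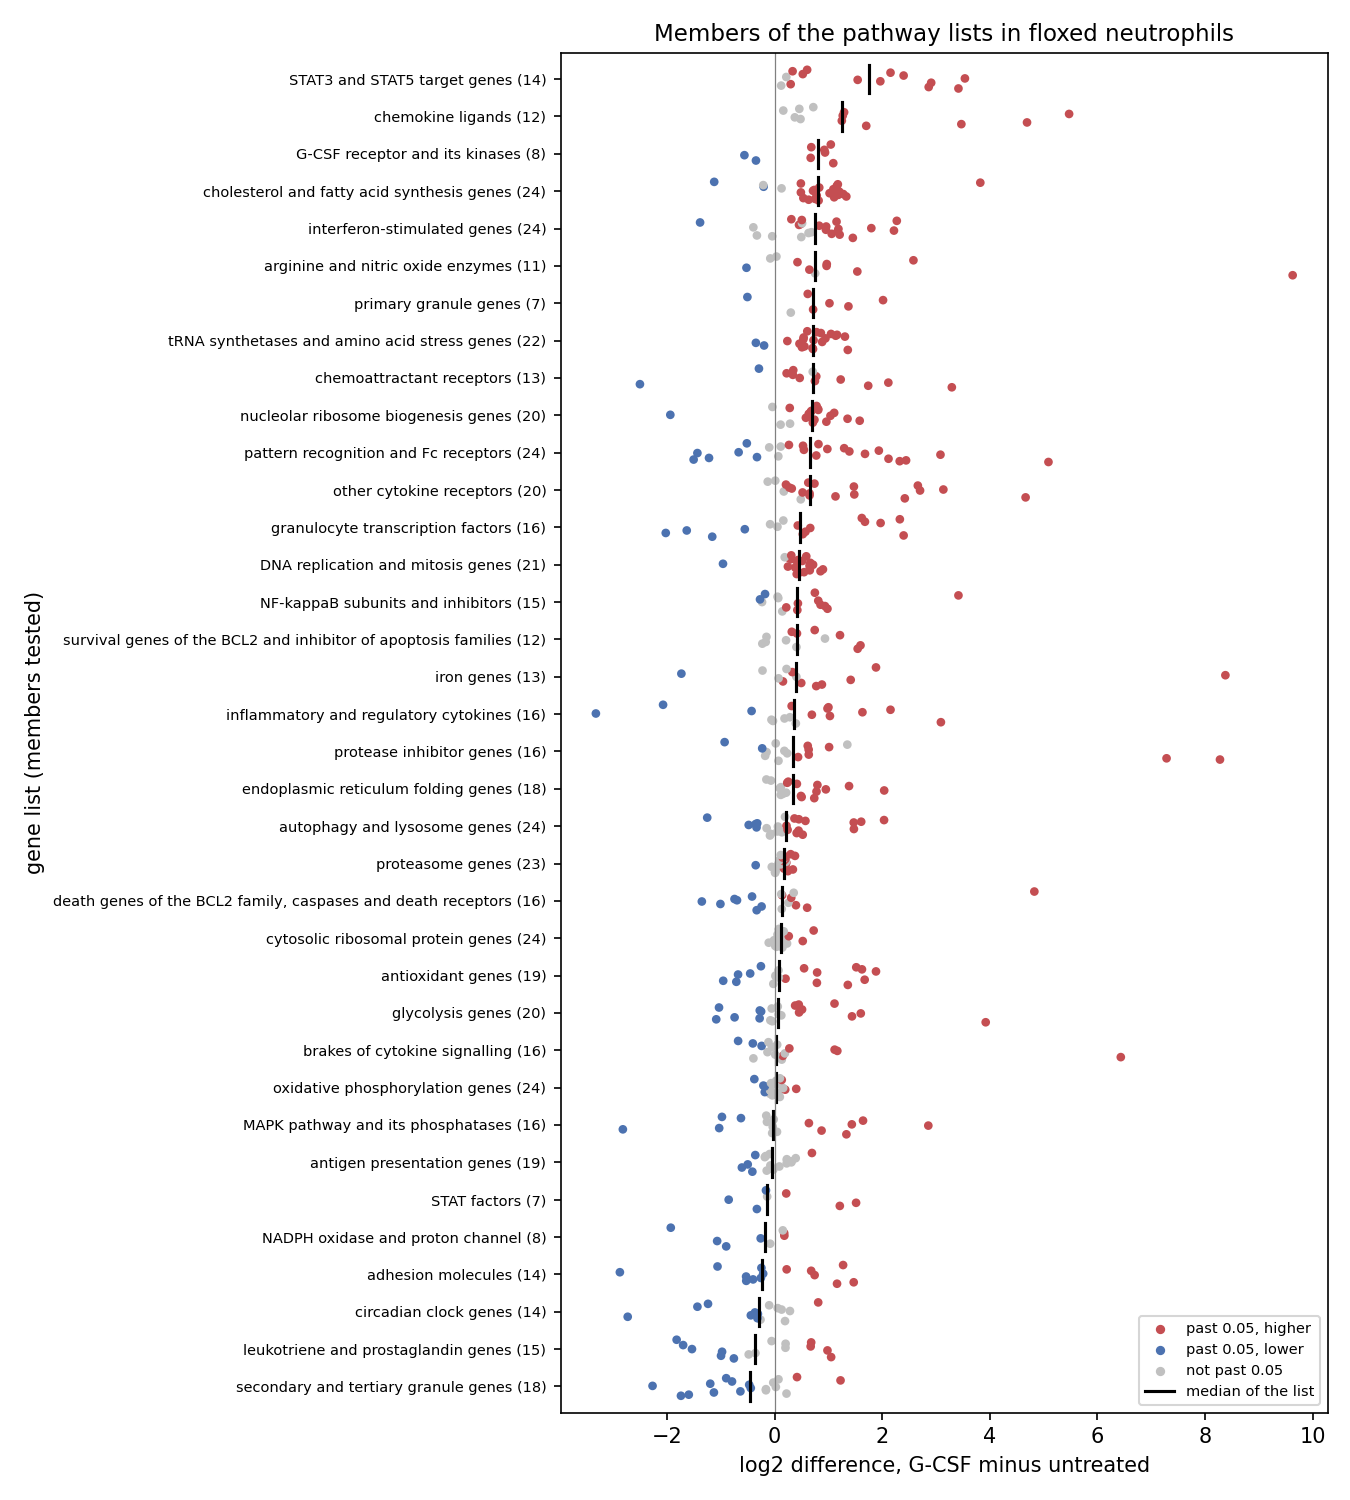
Log2 difference between G-CSF and untreated floxed libraries (horizontal axis) for every tested member of the 36 pathway lists (rows, number tested in brackets), coloured by whether the member passed an adjusted p of 0.05; black bars are list medians. STAT3 and STAT5 target genes have the highest median (1.76) and secondary and tertiary granule genes the lowest (-0.46).

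Markers of other cell types changed in some lists, beside 48.8% of all genes: 2 monocyte and macrophage markers rose and 3 fell of 10, 1 dendritic cell marker rose and 2 fell of 8, 2 eosinophil, basophil and mast cell markers rose of 10, 1 platelet marker fell of 9, and 2 stroma and endothelium markers rose and 2 fell of 8. Except for the eosinophil list and the monocyte falls, each of these counts moved by over 1.5 times in some alternative. The dendritic cell list summed to 1935 to 2618 untreated and 1946 to 2531 with G-CSF, and the stroma list to 763 to 912 and 812 to 878. Cd3d, of the T cell receptor complex, fell from 246, 235 and 248 to 58.5, 52.5 and 43.3 (log2 difference -2.23, SE 0.14, adjusted p 4.42e-09) while Cd3g read 9.59, 14.6 and 16.0 untreated and 6.50, 17.5 and 16.9 with G-CSF and did not pass. Ly6c2, shared by monocytes and young neutrophils, fell by 1.18 (SE 0.07, adjusted p 3.60e-09), Vcam1 fell by 1.42 (SE 0.25, adjusted p 1.83e-04) and Cx3cr1 fell by 0.74 (adjusted p 0.0257; lost with DESeq2 and without G-CSF replicate 1, untreated replicate 2 or untreated replicate 3). Siglecf, a lectin of eosinophils that activated neutrophils also make, rose from 392, 343 and 374 to 1449, 1155 and 1206 (log2 difference 1.77, SE 0.09, adjusted p 1.73e-10), and Prg2, an eosinophil granule protein, by 0.69 (SE 0.19, adjusted p 0.00716). Col1a1 fell from 116, 162 and 187 to 41.2, 28.0 and 40.5 (log2 difference -2.05, SE 0.23, adjusted p 1.94e-06). Mcpt8, a basophil protease, read 158, 839 and 654 untreated and 136, 902 and 576 with G-CSF and did not pass; library 1 was the lowest of both groups. In limma no B cell or erythroid marker passed; at an unadjusted p under 0.05 there were 0 and 1, edgeR and DESeq2 called 0 in each, and 1 B cell marker passed without untreated replicate 1 and 1 erythroid marker in a fit of the 6 floxed libraries alone.

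The 12 largest rises and 12 largest falls took in secreted, lipid and membrane proteins. Lipg, endothelial lipase, went from 25.6, 15.4 and 27.3 to 15698, 13337 and 13023 (log2 difference 9.24, SE 0.19, adjusted p 1.16e-14). Igfbp6, a carrier of insulin-like growth factor 2, went from 2.13, 7.71 and 2.82 to 2169.9, 2245 and 2072 (log2 difference 8.84, SE 0.30, adjusted p 2.57e-12), and the sulfotransferase-family gene Sult6b2 from 4.26, 0.857 and 0.941 to 573, 636 and 602. All untreated libraries were at or near the detection floor for Igfbp6 and Sult6b2, where the log2 scale with its pseudocount understates the change.

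Tgm1, a transglutaminase that crosslinks proteins, rose from 52.2, 56.5 and 53.6 to 12192, 11064 and 9979 (log2 difference 7.65, SE 0.10, adjusted p 1.42e-16), and its relative Tgm3 had the widest fall of all named genes, from 405, 438 and 332 to 4.33, 0.876 and 5.65 (log2 difference -6.59, SE 0.54, adjusted p 7.06e-08). Entpd3, an enzyme that breaks down extracellular ATP, rose from 48.0, 65.1 and 48.9 to 8375, 7336 and 7578 (log2 difference 7.15, SE 0.15, adjusted p 1.80e-14).

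Among the falls, Nat8l, which makes N-acetylaspartate, went from 3652, 3607 and 3598 to 213, 200.5 and 155 (log2 difference -4.26, SE 0.15, adjusted p 4.99e-12). The hair keratin gene Krt83 went from 778, 711 and 910.1 to 28.2, 21.0 and 27.3 (log2 difference -4.92, SE 0.23, adjusted p 1.27e-10), and Sema7a, a membrane-anchored semaphorin, from 1117, 1109 and 1175 to 87.7, 57.8 and 65.9 (log2 difference -4.01, SE 0.13, adjusted p 2.32e-12). Sntb1, of the dystrophin complex, fell by 4.45 (SE 0.14, adjusted p 1.22e-12) on the log2 scale. Itih5, of the hyaluronan-binding inhibitor family, fell by 4.27 (SE 0.13, adjusted p 7.04e-13), and Acot1, a thioesterase of fatty acyl-CoA, fell by 4.61 (SE 0.33, adjusted p 1.23e-08). Lct, Lyve1, Ascl2, Itga8 and Sstr4 completed the 12, each at 97.9 to 389 normalized counts untreated and 1.88 to 15.8 with G-CSF.

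The response was then set against that of the LysMcre-labelled libraries with an interaction term in limma; the titles of the treated ones say untreated, and they were placed by their sample descriptions. The targeted gene did not separate the genotypes downward: Socs3 read 313, 311 and 253 in untreated and 35984, 37668 and 38354 in G-CSF-treated LysMcre-labelled libraries, so its level did not fall with the label. The table holds no exon counts, so the floxed exons could not be looked at apart. Lyz2, whose locus carries the Cre, was low with that label, at 5646, 6602 and 5911 untreated and 507, 564 and 637 with G-CSF.

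Of 13915 genes, 3112 (22.4%) had a response that differed between the genotypes. Of the 24 largest changes in floxed cells, 12 did, and the difference lay in the direction of a larger response in the LysMcre-labelled libraries for all 12. These 24 were chosen on the floxed libraries, whose values also enter the difference. Sstr4, a somatostatin receptor, read 153, 188 and 231 untreated and 15.2, 9.63 and 7.53 with G-CSF in floxed libraries and 164, 193 and 159 untreated and 2.31, 1.18 and 0 with G-CSF in the others (difference of responses -2.42, SE 0.52, adjusted p 0.00307). The treated values of both genotypes lie near the floor of 3 reads, which was worth 2.57 to 3.54 normalized counts.

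Nat8l showed the next widest gap at far higher counts, with 34.7, 55.4 and 56.9 left in the treated LysMcre-labelled libraries (difference of responses -1.92, SE 0.21, adjusted p 1.22e-05). Tgm1 reached 36651, 40665 and 40694 there, against 12192, 11064 and 9979 in floxed ones (difference 1.77, SE 0.15, adjusted p 7.86e-07). Lct, the lactase gene, and Ascl2, a helix-loop-helix factor, differed by -1.68 and -1.67 (adjusted p 0.00525 and 0.0441). Wfdc17, Krt83 and Acot1 were among the 12 whose difference did not pass (differences 0.02, -0.03 and -0.10).

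**Figure D5:**
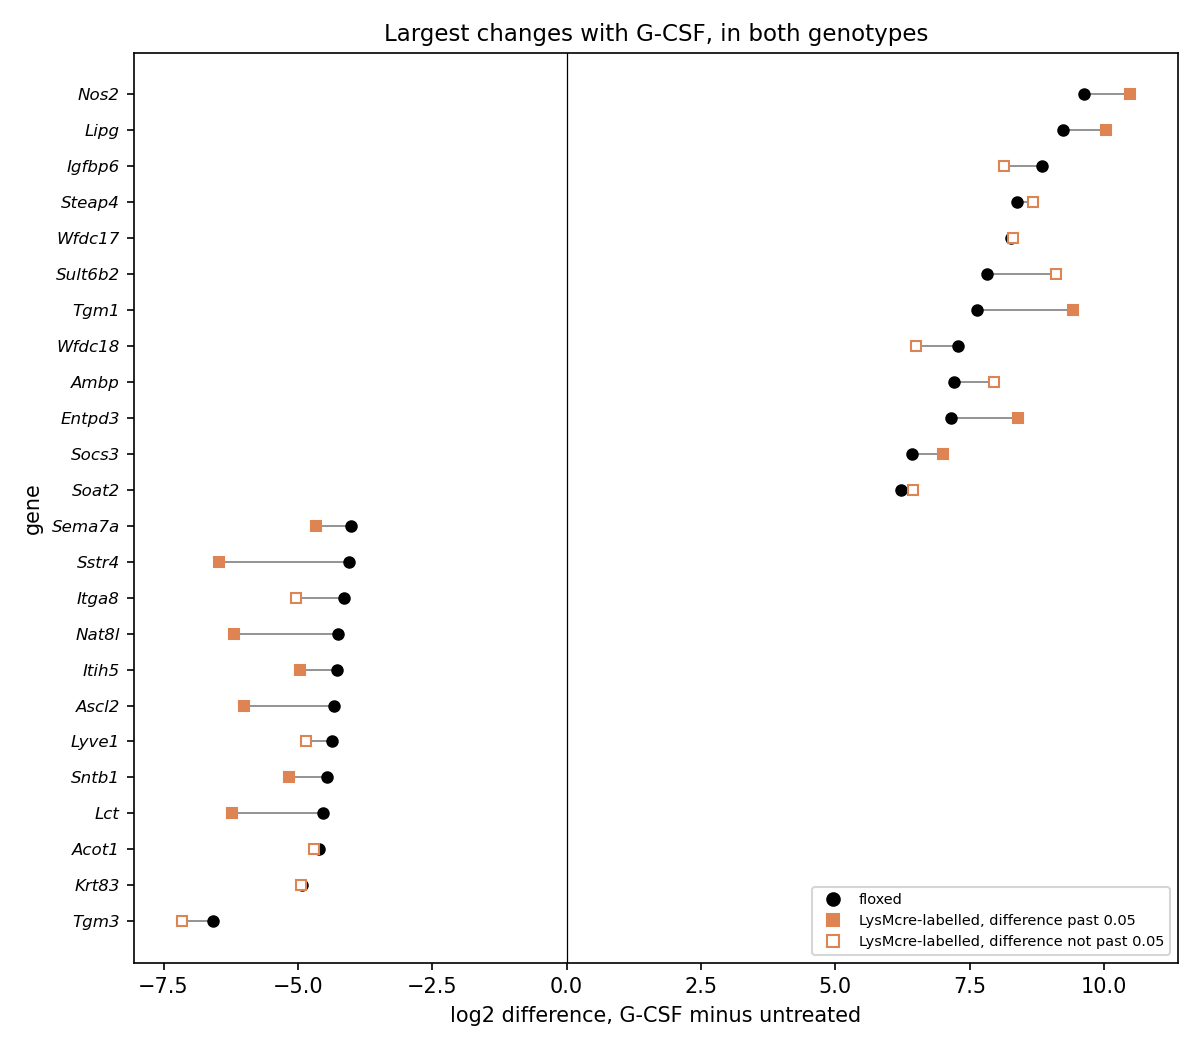
Log2 difference between G-CSF and untreated libraries (horizontal axis) for the 12 largest rises and 12 largest falls in floxed cells (rows); black circles are floxed and orange squares LysMcre-labelled libraries, filled where the difference of the responses passed an adjusted p of 0.05. The filled squares lie farther from 0 than the circles, widest for Sstr4 (-2.42).

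Within the pathway itself the responses differed in 5 of 8 receptor and kinase genes and 3 of 7 STAT genes. They also differed in 5 of 16 brakes and 11 of 14 STAT target genes, beside 22.4% of all genes. The members given below are only some of these lists and were not picked by the rule for genotype differences. The difference for Csf3r, 0.04, did not pass (adjusted p 0.891), and Jak2 rose further in LysMcre-labelled libraries by 0.95 (adjusted p 5.42e-07). Stat5a, which did not pass in floxed cells, reached 1670.1, 1736 and 1499 with G-CSF there (difference 0.90, adjusted p 3.29e-06). Cish reached 2155, 2588 and 2624 (difference 2.12, adjusted p 2.50e-07). Socs1 reached 361, 356 and 367 (difference 1.51, adjusted p 5.37e-06). Of the target genes Il4ra and Junb rose further by 1.16 and 0.75, and the log2 difference of Bcl6, 0.33 in floxed libraries, was -0.33 (difference -0.66, adjusted p 9.77e-05).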

How the data were processed

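RNA from sorted, cultured bone marrow neutrophils was sequenced as 12 libraries in 4 groups of 3, grouped by genotype and treatment labels. The deposited table holds a signal for each of 13935 genes: read counts that the authors divided by 1 scaling factor per library, called normalized counts here. Dividing by each library's smallest step gave whole reads for 100.0% of values at a tolerance of 0.01, and the factors matched median-of-ratios size factors within a relative gap of 5.3e-10. Per the submitters' processing notes the genome build was mm10. Aligner, counting tool, gene annotation and strand setting: not given in the sources used here. The lowest gene total over the 12 libraries was 121 reads, so genes below some level are not in the table. The table has 17 gene names turned into dates, which were left unnamed, and 2 columns without a sample or values, which were not used. Libraries held 19495754 to 26472118 reads, 3 reads being worth 2.57 to 3.54 normalized counts.

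Genes with a mean of at least 10 over the 12 libraries (13915; 20 left out) were tested on log2(value + 1) with limma 3.58.1 (R 4.3.3, trended prior), fitting 4 group means with 8 residual degrees of freedom, two-sided, with Benjamini-Hochberg adjustment over all genes tested and a threshold of 0.05. The pseudocount understates fold changes of low genes. The difference of responses was the interaction term of that fit. Exon lengths and positions came from GENCODE M21 by symbol (13513 matched, 422 not), and promoters came from RefSeq. Exon overlaps are not all given with the genes above. Ifitm2 (40.9% of exon length), Stat4 (26.7%), Fdps (26.7%) and Aars (14.3%) share exon sequence with another gene on the same strand. Hspa1a (19.0%) and Sqstm1 (17.3%) do so on the opposite strand. Their values are uncertain too, and smaller overlaps exist for other named genes. Alternatives were edgeR 4.0.16 and DESeq2 1.42.0 on the recovered reads, other pseudocounts, filters and scalings, the floxed libraries alone, a replicate block and leaving out each library. The method was also run on simulated data in which few genes changed, as many up as down. Such data cannot test the scaling where 48.8% of genes changed.

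The members and gene lists were chosen with earlier results of these data known. Genes were named by rule: the receptor, STAT, brake and STAT target lists whole; the 12 largest rises and falls with groups that did not overlap and at least 100 normalized counts as the higher group's mean; the 8 largest gains and losses per kilobase; genes at 3 reads or fewer in every library of one group and at least 50 normalized counts in every library of the other; in each other list up to 6 members, first the 4 largest changes, then the most abundant that did not pass; and the 5 widest differences between genotypes. Some genes that the rule names are not reported here; they are kept in the counts.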

Additional observations from a re-analysis of the deposited data

Results flagged for a closer look

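By the interaction term in limma, the response to G-CSF differed between floxed and LysMcre-labelled libraries in 3112 genes. Among the 24 largest changes in floxed cells the widest differences (LysMcre-labelled minus floxed response, log2 scale) were Sstr4 at -2.42, Nat8l at -1.92, Tgm1 at 1.77, Lct at -1.68 and Ascl2 at -1.67. The LysMcre-labelled responses themselves were -6.48, -6.18, 9.42, -6.22 and -6.00. The treated LysMcre-labelled libraries held 2.31, 1.18 and 0 normalized counts of Sstr4 and 0, 2.36 and 2.15 of Ascl2, at or under the worth of 3 reads.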

How the results depend on the processing

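Between 6121 and 6599 genes passed when each floxed library was left out in turn (2988 to 3260 higher, 3080 to 3339 lower), against 6784. Of these 6784, 6669 were among the 6897 calls of edgeR, 6436 among the 6495 of DESeq2, 6070 among the 6868 with equal library totals and 6521 among the 6885 under quantile normalization. With equal totals 38.5% of the calls were rises, against 49.5%. The difference between genotypes passed in 2669 to 3142 genes with 1 library left out, in 3890 with equal totals and in 3112 as reported. With the replicate number as a replicate block 6673 genes passed, and 2967 for the difference. One untreated LysMcre-labelled library is number 2 in its title and 3 in its description; the title's number was used, so its place in the block is in doubt. Untreated and G-CSF floxed libraries with the same number deviated together by 0.32, 0.20 and 0.06 (correlation across genes). Each untreated floxed library correlated best with the G-CSF library of its own number. G-CSF library 3 correlated better with untreated library 2 (0.15) than with its own number. In the LysMcre-labelled libraries the same numbers gave 0.21, -0.03 and 0.03. The numbers were not taken as a pairing, and whether they mark a shared source was not tested. If they do, the main fit ignores it. For the 320 named genes, 5271 comparisons with an alternative kept direction and side of the threshold, 75 passed only in the alternative (42 genes), 73 passed only as reported (20 genes) and 3 turned: under quantile normalization Sat1 was at -0.22, Gsr at -0.17 and Eno1 at -0.14, all 3 past the threshold there and not as reported (0.03, 0.08 and 0.06); the cause was not tested. With 3 libraries a group and no freshly sorted cells, the values hold for these cultures, and genes near 3 reads have uncertain fold changes.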
